A study of Sus scrofa with 21 samples.

Results

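The cell surface receptors that bind the Fc end of immunoglobulin G (IgG), and the molecules through which they start the uptake and killing of coated microbes, were followed in the whole blood of DD and LW pigs. The set holds 9 genes, FCGR1A, FCGR2B, FCGR3A, FCGRT, FCER1G, SYK, CYBB, NCF1 and NCF4, of the 45414 named genes and transcripts on the array, and 23 of its 60305 probes. Members were taken by the gene name printed for a probe in the scanner files. That name was spelled like the current symbol for 6 members and differed in case for 1 member (NCF4). The other 2 carried an older name, FCGR3B for FCGR3A and GP91-PHOX for CYBB, and were joined to the current pig symbol through the RefSeq accession of their probes or a RefSeq synonym.

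Blood RNA from 21 untreated pigs aged 60 days was hybridised in one colour, with 1 array per pig, on 3 chips. The 10 DD animals belong to the SLAdd line, minipigs made homozygous for the pig major histocompatibility complex and since kept inbred in France, and the 11 LW animals are Large White controls, a conventional breed. Both were fed the same standard diet without restriction. The DD animals came from 5 litters and the LW animals from 6, so that siblings within a breed are not independent.

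Fc receptors couple antibody to phagocytes. FCGR1A and FCGR3A signal through the common gamma chain FCER1G, whose tyrosine motif (ITAM) recruits the kinase SYK. SYK in turn drives the actin cup that closes around a particle and, through CYBB, NCF1 and NCF4, the oxidative burst of the NADPH oxidase. FCGR2B carries an inhibitory motif and damps this signal in B cells and myeloid cells, while FCGRT recycles IgG inside cells and does not trigger phagocytosis.

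The probes of the receptors are shown because the results for FCGR2B differed between probes and because several probes of a gene overlapped. Each oligonucleotide has 60 bases. Capitals mark the run that a probe shares with another probe of the same gene. The probe O2046 of FCGR2B has the same sequence as A_72_P165486, and both FCER1G probes are also a single sequence printed under 2 names, so the 23 probes held 21 distinct sequences.
FCGR2B A_72_P165486: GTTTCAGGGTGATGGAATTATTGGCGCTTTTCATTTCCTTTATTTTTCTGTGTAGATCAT
FCGR2B A_72_P735253: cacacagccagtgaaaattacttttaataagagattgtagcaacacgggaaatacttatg
FCGR2B A_72_P730723: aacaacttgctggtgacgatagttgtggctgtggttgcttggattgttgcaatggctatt
FCGR1A A_72_P302844: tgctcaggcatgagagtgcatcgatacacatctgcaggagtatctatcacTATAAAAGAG
FCGR1A O9759: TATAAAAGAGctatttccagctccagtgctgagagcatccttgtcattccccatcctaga
FCGR3A A_72_P662096: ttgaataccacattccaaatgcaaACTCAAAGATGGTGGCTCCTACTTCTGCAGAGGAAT
FCGR3A O12022: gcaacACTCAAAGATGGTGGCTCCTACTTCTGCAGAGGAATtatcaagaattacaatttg
The FCGR1A pair shared 10 bases at the ends, and the FCGR3A pair shared 36 bases. The longest run shared by probes of any 2 different members was 11 bases. The genome sequence was not used here, so whether a probe lies in a coding exon or an untranslated end was not determined.

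In the RefSeq annotation of Sscrofa11.1, FCGR2B, FCGR3A and FCER1G lie close together on chromosome 4, at chr4:88873762-88892964, chr4:88948357-88956513 and chr4:89242467-89246344. FCGR1A lies farther along the same chromosome, at chr4:99233632-99242531. FCGRT is at chr6:54581103-54599193, SYK at chr14:2103706-2160886, CYBB at chrX:33654656-33678346, NCF1 at chr3:11820367-11834394 and NCF4 at chr5:10876147-10994002.

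FCGR2B was the single member that differed between the breeds past the threshold, and it was higher in DD. This was 1 of 9 members, beside 21.1% of all 33215 genes and transcripts tested (7002 called by limma at an adjusted p of 0.05), of which 3808 (11.5% of the genes tested) were higher and 3194 (9.62%) lower in DD. The higher share of the calls was 54.4%, but it was 66.7% when each array was scaled to its 75th percentile and 67.9% after cyclic loess. At an unadjusted limma p of 0.05, 2 members passed, beside 36.7% of all genes. The log2 difference, DD minus LW, was positive for 6 members and negative for 3, with a median of 0.10 against -0.04 over all genes tested. The values of the breeds overlapped in all 9 members, and 0.373% of all genes had no overlap. All values are quantile-normalised log2 intensities, the probes of a gene averaged, and they compare animals for 1 gene at a time, not 1 gene with another. In bulk blood, fewer cells of a type and less RNA per cell cannot be told apart.

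**Figure D1:**
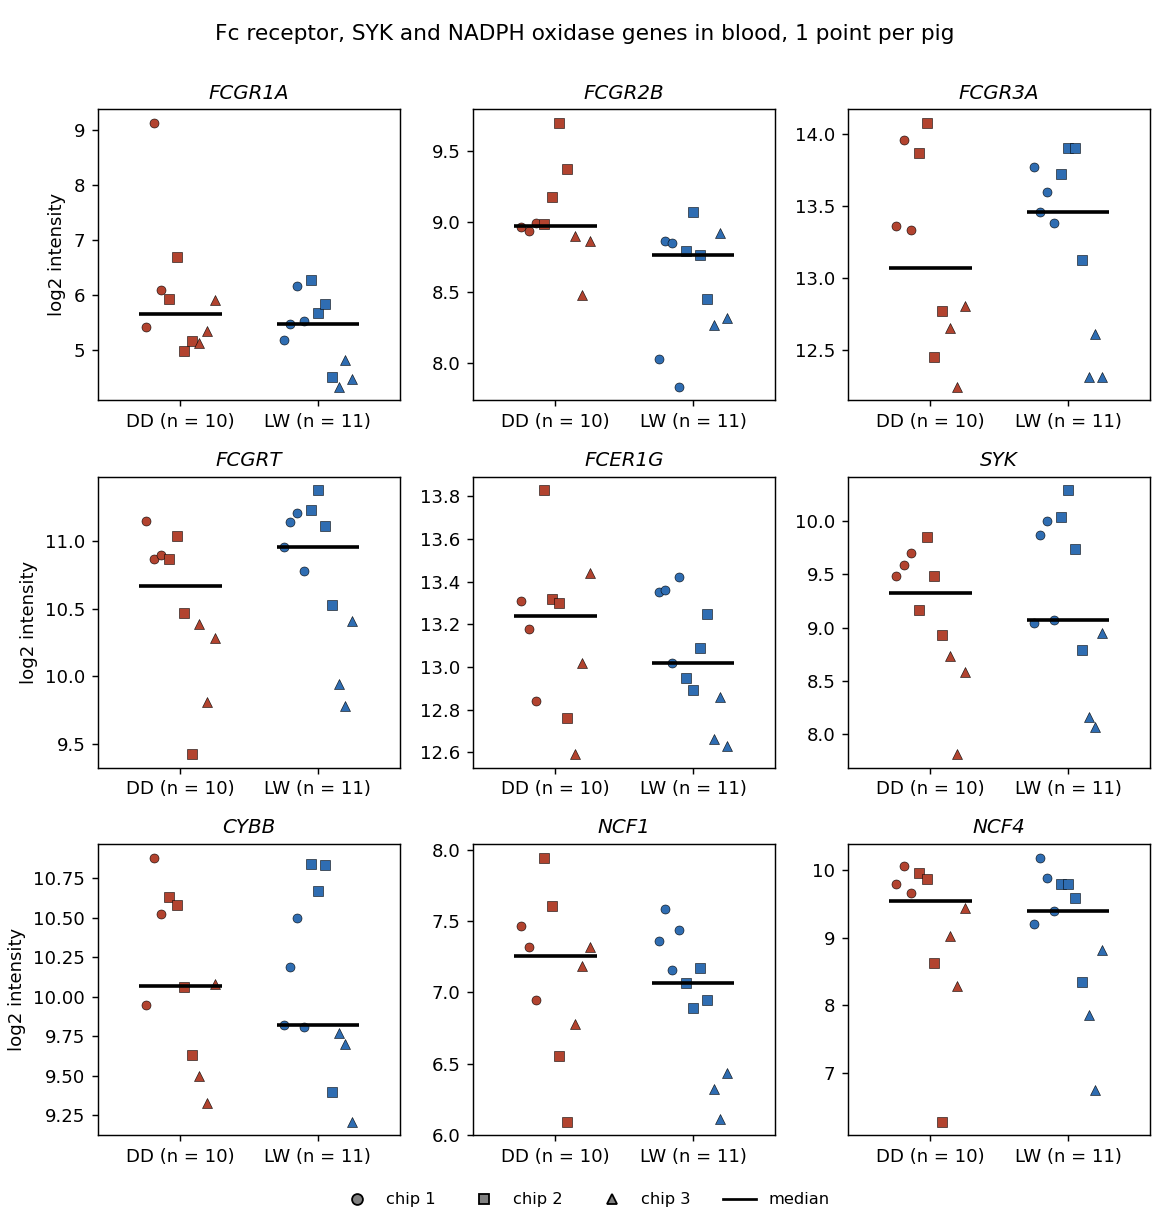
Log2 intensity of each gene (vertical axes) in every pig, with DD and LW side by side, the chip as the symbol and the median of each breed as a line. FCGR2B is shifted upward in DD with overlap, 1 DD pig stands alone at 9.14 for FCGR1A, and several genes are low on chip 3 in both breeds.

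The arrays differed in brightness, and this touches every comparison. The log2 75th percentile of the processed signal, before normalization between arrays, ran from 6.56 to 8.49 in DD (median 7.64) and from 7.37 to 8.62 in LW (median 8.41). The share of probes well above background was 44.7 to 61.0% in DD and 53.0 to 63.8% in LW. On all 21 arrays 19 of the 23 member probes were well above background, and no member probe was saturated.

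FCGR1A encodes the high affinity IgG receptor of monocytes and activated neutrophils. Its log2 intensity ran from 4.99 to 9.14 in DD with a median of 5.66, and from 4.33 to 6.27 in LW with a median of 5.48. The highest value belonged to DD_06, and the next DD value was 6.70. The breeds overlapped, with 2 DD pigs above every LW pig and 4 LW pigs below every DD pig. The log2 difference was 0.73 (SE 0.34, 95% interval 0.02 to 1.44, limma adjusted p = 0.124). Without DD_06 it was 0.35 (adjusted p = 0.204), with a normexp offset of 50 it was 0.44, and with brightness as a covariate it was 1.34 (adjusted p = 0.111). Differences within chips 1, 2 and 3 were 1.30, 0.12 and 0.92. Both probes were dim in some pigs, being well above background on 7 of 10 DD arrays each, and on 8 and 9 of 11 LW arrays.

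FCGR2B encodes the inhibitory IgG receptor. Its log2 intensity ran from 8.48 to 9.70 in DD with a median of 8.97, and from 7.83 to 9.07 in LW with a median of 8.76. In all, 9 of 10 DD pigs lay above the LW median, 3 lay above every LW pig, and 5 of 11 LW pigs lay below every DD pig. The log2 difference was 0.46 (SE 0.14, 95% interval 0.18 to 0.74, limma adjusted p = 0.0256), a 1.37-fold higher signal in DD. DD was higher within each chip, by 0.57, 0.54 and 0.25 on the log2 scale on chips 1, 2 and 3. When littermates were averaged the difference was 0.50, with an exact permutation p of 0.00649 over 462 divisions of the 11 litters, two-sided, where 0.00216 is the smallest p the design allows. Adjusted over all genes tested that p was 0.0565, and 9.15% of all genes passed this test. The call was lost in the same way without LW_18 (adjusted p = 0.0705), without chip 1, 2 or 3 (0.066, 0.0659 and 0.158) and without a chip term (0.0755).

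The 4 probes of FCGR2B gave different values. Tested one by one over 45229 probes, 21.7% of which were called, 3 of the 23 member probes passed the threshold and all were probes of FCGR2B. A_72_P735253 ran from 7.73 to 9.03 in DD (median 8.19) and from 6.62 to 8.15 in LW (median 7.88), and 7 of 10 DD pigs lay above every LW pig. Its log2 difference was 0.65 (SE 0.16, limma adjusted p = 0.011). The common sequence of A_72_P165486 and O2046 differed by 0.55 (SE 0.16, adjusted p = 0.0253) and 0.51 (SE 0.17, adjusted p = 0.0376).

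A_72_P730723, the remaining probe, ran from 9.75 to 10.44 in DD (median 10.15) and from 9.63 to 10.53 in LW (median 10.05), so that the breeds overlapped almost fully. Its log2 difference was 0.13 (SE 0.09, 95% interval -0.07 to 0.32, limma adjusted p = 0.332). After breed and chip means were removed, the pair of 1 sequence correlated at r = 0.98 over the 21 arrays and A_72_P735253 followed it at 0.97 and 0.94. A_72_P730723 followed these probes at 0.41 to 0.51. Of its bases 45.0% were G or C, against 35.0% in each of the other FCGR2B sequences. The mean of the other sequences minus A_72_P730723 was -1.53 ± 0.48 (SD, n = 10) in DD and -2.04 ± 0.60 (SD, n = 11) in LW. This contrast was chosen after the probe values were seen and is given as a description, without a test. With A_72_P730723, the probe of highest mean, standing alone for the gene, FCGR2B was not called.

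**Figure D2:**
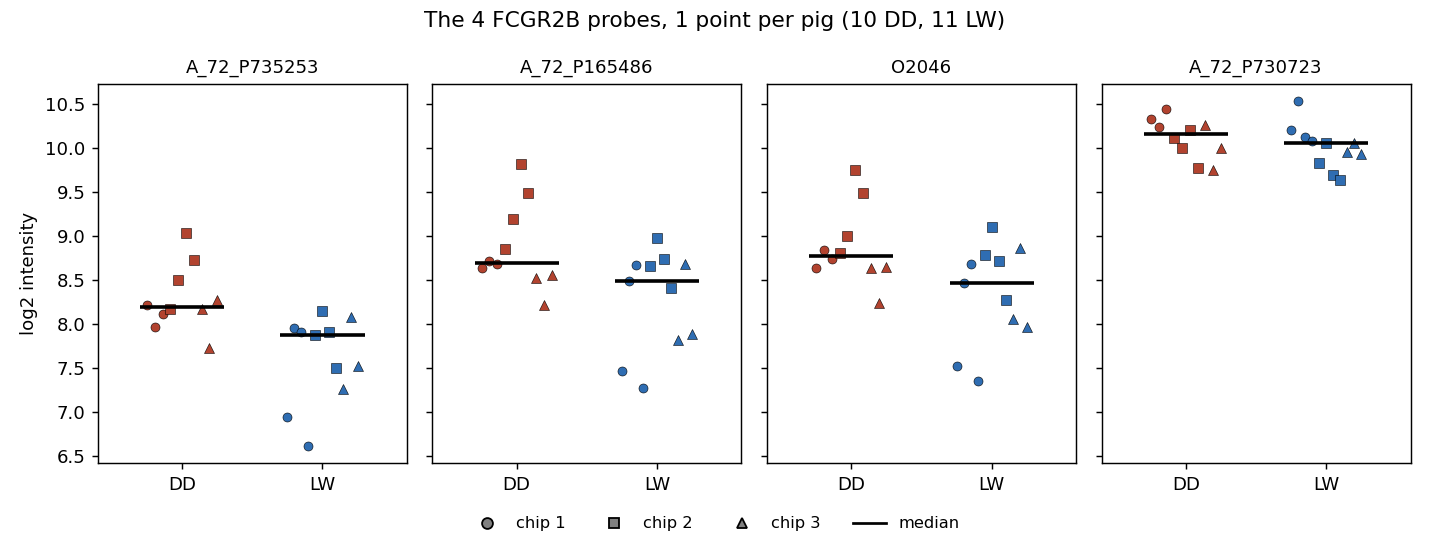
Log2 intensity (vertical axis) of the 4 FCGR2B probes in every pig, DD against LW, with the chip as the symbol and the breed median as a line. The first 3 panels show higher DD medians, 8.19 against 7.88 for A_72_P735253, while both breeds lie between 9.63 and 10.53 for A_72_P730723.

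Brightness and blood cell markers were set beside FCGR2B. Across the 21 arrays its deviations from breed and chip means correlated with array brightness at r = 0.58, and LW arrays were the brighter ones. With brightness as a further covariate the log2 difference was 0.73 (SE 0.15, limma adjusted p = 0.0127). The deviations followed the mean of 9 B cell markers at r = 0.74 (Spearman rho 0.62, r = 0.74 without LW_07 and LW_22), and the mean of 11 monocyte markers at r = 0.05. The r was -0.60 with the mean of the platelet markers, -0.56 with erythroid, -0.40 with neutrophil, -0.40 with natural killer and -0.07 with T cell markers. These correlations describe arrays that share litters and brightness. The B cell marker mean ran from 7.51 to 9.01 in DD (median 8.59) and from 7.62 to 9.22 in LW (median 8.06), with 6 of 9 markers above background on all arrays. Of the 9 markers 1 was called, VPREB3, a protein of B lineage cells, at 0.81 (SE 0.22, limma adjusted p = 0.0181), and at 1.37 (adjusted p = 0.0017) with brightness as a covariate. The part of B cell number in the FCGR2B difference was not tested.

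FCGR3A encodes the low affinity receptor of natural killer cells, monocytes and neutrophils. It ran from 12.24 to 14.08 in DD with a median of 13.06, and from 12.31 to 13.90 in LW with a median of 13.46. Both breeds covered nearly the same range, and the log2 difference was -0.09 (SE 0.17, 95% interval -0.45 to 0.26, limma adjusted p = 0.718). All 4 probes gave differences near 0, from -0.13 to -0.07. The sign was not stable, being 0.11 with 75th percentile scaling and 0.01 with cyclic loess. On chip 3 the mean was 12.56 in DD and 12.41 in LW, below the 13.29 to 13.66 of the other chips in both breeds. The probes did not share this drop equally. On chip 3 A_72_P223802 read 13.64 to 14.04 in DD and 13.72 to 14.37 in LW, against highs of 14.58 and 14.67 over all chips. There O12022 read 11.35 to 12.08 in DD and 11.14 to 11.51 in LW, against highs of 14.06 and 13.88. Low values of O12022 were not limited to chip 3. On chip 2 it read 11.54 in DD_13, 11.95 in DD_16 and 12.29 in LW_15, against 13.71 to 14.06 in the other pigs of that chip. The drop of the gene mean thus depends on the probe, and its cause was not tested.

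FCGRT, the neonatal Fc receptor that spares IgG from breakdown, ran from 9.42 to 11.15 in DD (median 10.67) and from 9.78 to 11.38 in LW (median 10.96). No DD pig lay above every LW pig. The log2 difference was -0.22 (SE 0.17, 95% interval -0.57 to 0.13, limma adjusted p = 0.356). All 4 probes gave negative values, from -0.25 to -0.18. Within chips 1, 2 and 3 the difference was -0.05, -0.61 and 0.12, and without chip 2 it was 0.01. These within-chip values differed between probes. A_72_P232557 was at -0.07, -0.25 and -0.46 on chips 1, 2 and 3, and O11920 at 0.09, -0.46 and -0.16. A_72_P440381 was at -0.13, -0.98 and 0.58, and A_72_P570294 at -0.07, -0.78 and 0.50. On chip 2 A_72_P440381 read 9.64 in DD_13, 8.33 in DD_16 and 10.05 in LW_15, against 10.83 to 11.48 in the other pigs.

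FCER1G, the ITAM adaptor shared by the activating receptors, ran from 12.59 to 13.83 in DD (median 13.24) and from 12.63 to 13.42 in LW (median 13.02). Here 2 DD pigs lay above every LW pig, and the ranges otherwise coincided. The log2 difference was 0.13 (SE 0.13, 95% interval -0.13 to 0.40, limma adjusted p = 0.469).

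SYK, the kinase recruited by that adaptor, ran from 7.81 to 9.85 in DD (median 9.32) and from 8.07 to 10.29 in LW (median 9.07). The breeds overlapped over most of the range, and the log2 difference was -0.12 (SE 0.18, 95% interval -0.50 to 0.26, limma adjusted p = 0.668). On chip 3 SYK averaged 8.37 in DD and 8.39 in LW, and on the other chips 9.36 to 9.71. The dimmer probe A_72_P186906 gave -0.29 (SE 0.17, adjusted p = 0.227), and the brighter A_72_P232627 gave 0.05 (SE 0.22, adjusted p = 0.892).

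The oxidase genes showed no call. CYBB, the catalytic membrane subunit, ran from 9.33 to 10.88 in DD (median 10.07) and from 9.21 to 10.84 in LW (median 9.82). These ranges were almost identical, with a log2 difference of 0.06 (SE 0.18, 95% interval -0.32 to 0.44, limma adjusted p = 0.837). NCF1, the cytosolic organiser subunit, ran from 6.09 to 7.95 in DD (median 7.25) and from 6.11 to 7.59 in LW (median 7.07). Its log2 difference was 0.20 (SE 0.18, 95% interval -0.17 to 0.57, adjusted p = 0.43), and it was 0.81 within chip 3 but -0.14 and 0.03 within chips 1 and 2. The NCF1 probes differed in quality, since O2462 was well above background on 1 DD and 2 LW arrays while A_72_P146491 was so on all of them. O2462 gave 0.33 (SE 0.13, adjusted p = 0.0622) and A_72_P146491 gave 0.07 (SE 0.31, adjusted p = 0.889).

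NCF4, a further cytosolic subunit that binds phosphoinositides of the phagosome, was read by 1 probe. It ran from 6.27 to 10.07 in DD (median 9.55) and from 6.74 to 10.19 in LW (median 9.39). The lowest pig of each breed, DD_16 and LW_22, stood well below its breed's median. The log2 difference was 0.10 (SE 0.37, 95% interval -0.66 to 0.86, limma adjusted p = 0.857). This interval was the widest of the 9 members and spanned differences of either sign, and the difference was -0.70 within chip 2 and 1.11 within chip 3. On chip 2 NCF4 read 8.63 in DD_13, 6.27 in DD_16 and 8.35 in LW_15, against 9.59 to 9.96 in the other pigs. DD_16 and LW_22 were also the lowest pigs of their breeds for FCGRT and NCF1.

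**Figure D3:**
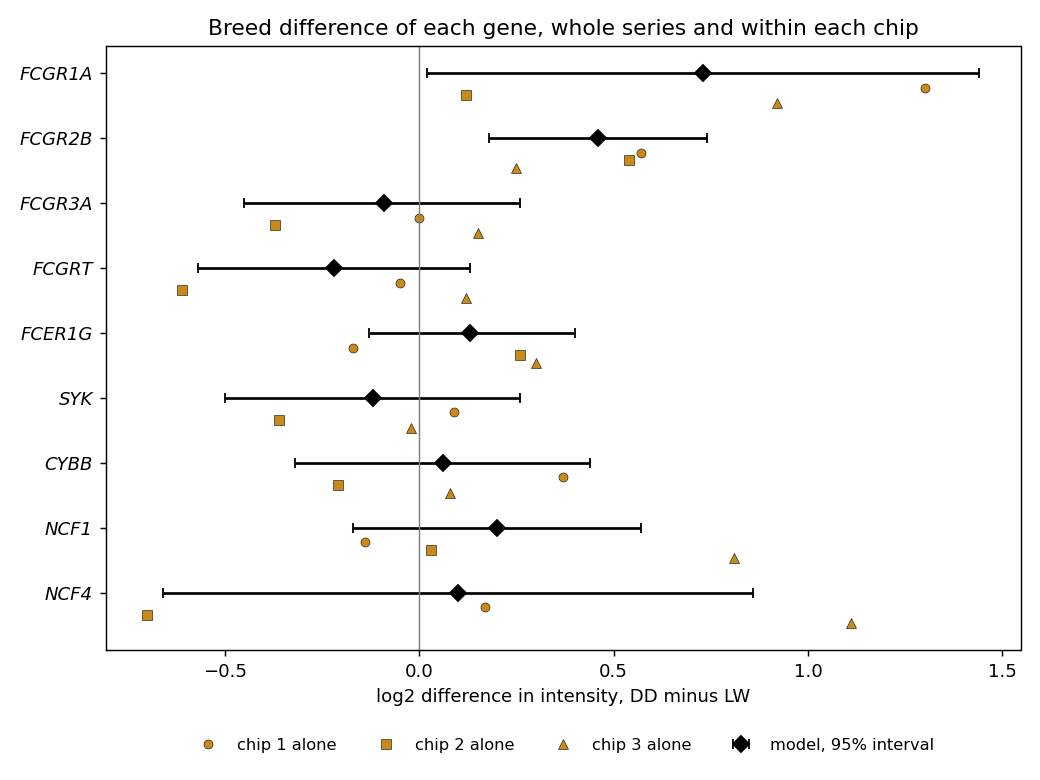
Log2 difference, DD minus LW (horizontal axis), of each member from the model over all chips (diamonds with 95% intervals) and as plain differences of breed means within each chip (other symbols). FCGR2B and FCGR1A have intervals above 0, and the within-chip values of NCF4 lie at -0.70 and 1.11 on chips 2 and 3.

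The members were also compared across animals. After breed and chip means were removed, 16 of the 36 pairs of members correlated above 0.5 over the 21 arrays, 5 pairs were negative, and the median r was 0.41. FCGRT and NCF4 followed each other most closely, at r = 0.94 (Spearman rho 0.88, r = 0.88 without DD_16 and LW_22). FCGR1A with CYBB, FCGRT with SYK and NCF1 with NCF4 each reached 0.75, followed by FCER1G with NCF1 (0.73), FCGR3A with CYBB (0.70) and FCGR1A with FCGR3A (0.69). FCGR2B had r = -0.44 to NCF1, -0.32 to FCER1G and -0.12 to FCGR3A, and 0.51 to SYK. All arrays share brightness and litters, and no p is given. The correlations are of gene means, and some probes followed their own gene mean weakly on the same measure. The r was 0.53 for A_72_P232557 of FCGRT, against 0.89 to 0.97 for its other probes. It was 0.46 for A_72_P223802 of FCGR3A, against 0.90 to 0.97, and 0.42 for the dim O2462 of NCF1. Whether the pairs of members hold for each probe was not tested.

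Among 9242 other genes with a symbol, those most like each member on the same measure were named, and nothing on shared function or control follows from it. FCGR1A was followed most closely by TDRD7 (r = 0.93) and USP18 (0.90), and FCGR2B by BLNK (0.94), a B cell adaptor, and TLR1 (0.91). FCGR3A was close to IRF1 (0.91), FCGRT to MFSD5 (0.98) and EML3 (0.97), and FCER1G to HRH4 (0.84) and FLVCR2 (0.81). SYK was nearest to CD72 and TCF4 (both 0.94), CYBB to RRBP1 (0.92), NCF1 to MSRB1 (0.95) and PDLIM7 (0.94), and NCF4 to HEXA (0.99) and EMP3 (0.98). Of the genes named here FLVCR2, a transporter, was the only one called between breeds, at 0.31 (SE 0.11, limma adjusted p = 0.0409). BLNK differed by 0.17 (SE 0.17, adjusted p = 0.481).

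The rest of the phagocytic pathway was read from 139 further genes grouped by role, of which 106 were on the array and 102 were tested. In DD 7 were higher and 17 lower, 23.5% in all beside the 21.1% of all genes, and the median log2 difference was -0.06 against -0.04. Some of these genes also stand in gene lists that the study drew from these animals, so the counts are not independent evidence of a direction. The call counts rest on few arrays. They were 1 without chip 3, 8 without LW_18, 34 without DD_06, and 3 with brightness as a covariate (DOCK1, LCP2 and PIK3R2). Of the genes named from these roles and from the markers, CRKL, DUOX1, S100A4, CD8A and PPBP were not called with 75th percentile scaling, with the same sign.

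**Figure D4:**
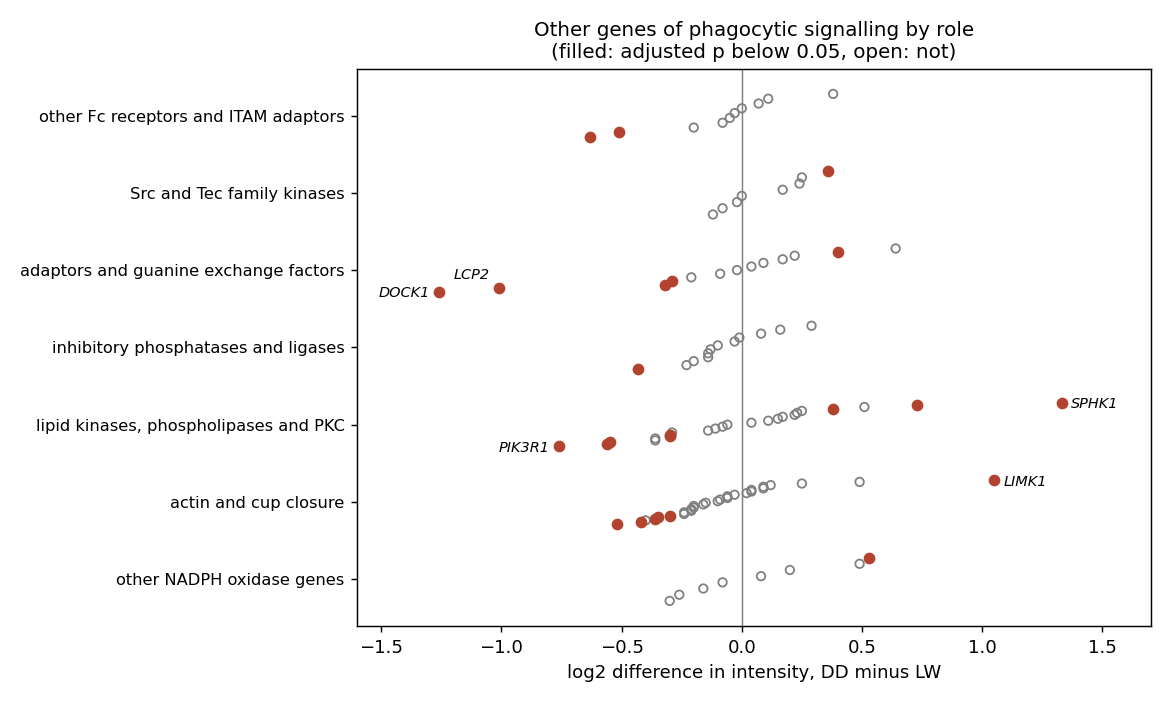
Log2 difference, DD minus LW (horizontal axis), of the 102 other pathway genes, 1 point per gene, grouped by role, with filled points past an adjusted p of 0.05. Most points lie near 0, and LCP2, SPHK1 and LIMK1 lie farthest out beside DOCK1, whose DD arrays were not well above background.

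Other Fc receptors and ITAM adaptors gave 0 higher and 2 lower of 10 tested. CD247, the zeta chain of the T cell receptor and of natural killer cell FCGR3A, fell by 0.63 on the log2 scale (SE 0.20, limma adjusted p = 0.0301), and HCST, the adaptor of KLRK1, fell by 0.51 (SE 0.12, adjusted p = 0.0078). With brightness as a covariate they were at -0.39 and -0.34 (adjusted p = 0.671 and 0.314). Of the 9 T cell markers 3 passed, all lower in DD, beside 9.62% of all genes tested. They were CD3G (-0.64), CD3D (-0.58) and CD8A (-0.64), subunits of the T cell receptor complex and a coreceptor. With brightness as a covariate these 3 were at -0.36, -0.30 and -0.18 (limma adjusted p = 0.342, 0.595 and 0.944). The T cell marker mean ran from 7.89 to 9.20 in DD and from 8.46 to 9.39 in LW, with 7 of 9 markers above background on all arrays. The part of T cell number in the CD247 and HCST values was not tested.

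Of 8 Src and Tec family kinases 1 was higher, PTK2B, a focal adhesion family kinase, at 0.36 (SE 0.11, limma adjusted p = 0.0277). Adaptors and guanine exchange factors gave 1 higher and 4 lower of 13. LCP2, the SLP-76 adaptor that SYK family kinases phosphorylate, ran from 10.96 to 11.35 in DD (median 11.19) and from 10.74 to 12.78 in LW (median 12.32), a fall of 1.01 on the log2 scale (SE 0.16, adjusted p = 0.000249). All DD pigs thus lay in a narrow band inside the lower part of the LW range. Of the pathway genes named, LCP2, VAV1, PIK3R1, SPHK1, LIMK1, RAC2, CORO1A, WIPF1 and DNM2 were each read by 1 probe kept for the test. The exchange factors VAV1 and VAV2 went opposite ways, at -0.29 (SE 0.10, adjusted p = 0.0445) and 0.40 (SE 0.11, adjusted p = 0.0225), and VAV1 was not called with 75th percentile scaling (-0.11, adjusted p = 0.408). The adaptor CRKL fell by 0.32 (SE 0.10, adjusted p = 0.0348).

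DOCK1, an exchange factor for RAC1, reached a signal well above background on 0 of 10 DD and 8 of 11 LW arrays, so its level in DD is uncertain. Measured means were 3.82 in DD and 5.06 in LW, a log2 difference of -1.26 (SE 0.16, limma adjusted p = 2.04e-05). Taking for each DD array the higher of its own value and the lowest signal well above background of any probe (mean 4.06), DOCK1 was 2-fold lower in DD. This is not a firm bound, since DOCK1 reached 4.40 in DD without being well above background on any DD array.

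Of 12 genes listed as inhibitory phosphatases and ligases 0 were higher and 1 lower, beside 9.62% of all genes tested lower in DD. It was PTPRC, the CD45 phosphatase of all leukocytes, at -0.43 (SE 0.12, limma adjusted p = 0.0224). With brightness as a covariate PTPRC was at -0.28 (adjusted p = 0.559). Its role here is a label of the list, and no inhibitory effect was measured. Lipid kinases, phospholipases and protein kinase C gave 3 higher and 5 lower of 23. The subunits of phosphoinositide 3-kinase that passed were lower, PIK3R2 at -0.55 (SE 0.10, adjusted p = 0.00107), PIK3CG at -0.56 (SE 0.14, adjusted p = 0.0113), PIK3R5 at -0.30 (SE 0.09, adjusted p = 0.025) and PIK3R1 at -0.76 (SE 0.25, adjusted p = 0.0361). With brightness as a covariate PIK3R1 was at -0.05 (adjusted p = 0.994) and PIK3CG at -0.21 (adjusted p = 0.657), neither called. PIP5K1C, which makes the substrate of these kinases, was also lower, at -0.30 (SE 0.09, adjusted p = 0.0285). SPHK1, sphingosine kinase, ran from 6.17 to 9.05 in DD (median 7.71) and from 5.83 to 7.49 in LW (median 6.32). It was 2.52-fold higher in DD, with a log2 difference of 1.33 (SE 0.27, adjusted p = 0.00302), and exceeded 1 on each chip (1.02, 1.40 and 1.61).

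Actin and cup closure genes gave 1 higher and 5 lower of 28. LIMK1, a kinase that inactivates cofilin, ran from 7.08 to 9.75 in DD (median 8.39) and from 6.13 to 8.43 in LW (median 7.42), a log2 difference of 1.05 (SE 0.25, limma adjusted p = 0.00941). With brightness as a covariate LIMK1 was at 0.24 (adjusted p = 0.754). The lower genes were RAC2 (-0.52), the haematopoietic RAC of the oxidase, CORO1A (-0.42), ARPC3 (-0.36), WIPF1 (-0.35) and DNM2 (-0.30), with adjusted p from 0.0156 to 0.0342. None of these 5 was called with 75th percentile scaling, where they lay between -0.27 and -0.11. Of 8 other NADPH oxidase genes 1 was higher, DUOX1, a dual oxidase, at 0.53 (SE 0.16, adjusted p = 0.0271), although it was well above background on no more than 3 DD and 2 LW arrays.

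Markers of the phagocytes themselves were called in 18.2% of monocyte and 8.33% of neutrophil markers, beside 21.1% of all genes tested. Of 11 monocyte markers 0 were higher and 2 lower, the scavenger receptor CD163 at -0.72 (SE 0.21, limma adjusted p = 0.023) and S100A4 at -0.48 (SE 0.16, adjusted p = 0.0403), while CSF1R, the M-CSF receptor, missed the threshold at 0.63 (adjusted p = 0.0505). Of 12 neutrophil markers 1 was higher, the granule enzyme ARG1, at 0.67 (SE 0.23, adjusted p = 0.0443), and PGLYRP1 and ELANE did not pass (0.44 and 0.25). The monocyte marker mean ran from 8.30 to 9.37 in DD and from 8.39 to 9.33 in LW, and the neutrophil mean from 8.68 to 10.02 and from 8.88 to 10.04. Of 9 natural killer markers 0 passed in limma (1 at an unadjusted p under 0.05, beside 36.7% of all genes). The lowest p belonged to TBX21 (0.49, limma adjusted p = 0.0795), KLRK1 (-0.65) and GZMA (0.46). Their part in the values of the Fc receptors was not tested.

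Among the other cells of blood, 4 of 9 erythroid markers were higher in DD, among them EPB42 (1.06), ALAS2 (0.75) and KLF1 (0.55), beside 11.5% of all genes tested. With brightness as a covariate these 3 genes were at 0.06, -0.04 and -0.01 (limma adjusted p = 0.986, 0.993 and 0.997). Of 7 platelet markers 1 was lower, PPBP, at -0.94 (SE 0.32, limma adjusted p = 0.041), with GP1BB and GP6 short of the threshold (-0.58 and -0.31). With brightness as a covariate PPBP was at -1.94 (adjusted p = 0.000373) and GP1BB passed at -1.50 (adjusted p = 0.01). The B cell markers FCRLA and MS4A1 were at 0.38 and 0.30 and did not pass. The erythroid marker mean ran from 10.20 to 11.63 in DD (median 10.95) and from 10.02 to 11.18 in LW (median 10.48).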

How the data were processed

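Whole blood RNA was measured on a custom pig Agilent array. The authors extracted spot intensities with Agilent Feature Extraction 10.7.3.1, left out 3 outlier animals and noted a technical bias of the third chip. The deposited log2 matrix was made by the authors by normexp background correction, log2 scaling and quantile normalization. Intensity values of the deposited scanner files served for flags, brightness and alternatives. The array annotation was renewed by the authors on Sscrofa11.1.

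Here control probes and the 25% of probes with the lowest mean were left out (45229 of 60305 kept), and probes of a gene name, updated to the RefSeq symbol, were averaged. Breed and chip were fixed effects and litter a random block (consensus correlation -0.11) in limma 3.58.1 (R 4.3.3), with Benjamini-Hochberg adjustment over all 33215 names tested. With this negative correlation the block did not make the test stricter for siblings. Without the block limma called 4820 names in place of 7002, and the adjusted p of FCGR2B was 0.0398 in place of 0.0256. The code was tested on simulated data. The limma p-values weigh the breed difference against the spread between animals, of which siblings share litters. The permutation p-values rest on the means of the 11 litters. Members and lists were chosen with earlier results of these data known. Named were all members, each role's called genes up to the 6 of lowest p, the 2 genes most like each member and up to 3 genes per marker list, a few of which are not reported here. Brightness is the log2 75th percentile of the processed signal. Array number limits the precision.
Breed came from the sample labels, and litter and chip from the study's list of animals. Litter means were also compared by exact permutation. Alternatives changed the background correction, scaling, filter, probe summary, litter, chip and brightness terms and left out single chips and animals. Updating the gene names to current symbols was decided after seeing the files, and so were the runs with the names as written, with RefSeq symbols alone and with each distinct probe sequence counted once.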

Additional observations from a re-analysis of the deposited data

Results flagged for a closer look

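In 2 members a single DD pig stood apart from the other DD pigs by more of the group's range than expected for 10 values, a rule that chance meets in about 1 group in 20. For FCGR1A the pig DD_06 was at a log2 intensity of 9.14 and the next at 6.70, a gap of 0.588 of the whole DD range. For NCF4 the pig DD_16 was at 6.27 and the next at 8.29, a gap of 0.532 of the range. After the chip effect was removed the gaps were 0.507 and 0.615, and FCGRT in DD_16 then also stood apart with a gap of 0.638.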

How the results depend on the processing

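The 7002 genes called in the whole series became 4333 with no filter on dim probes, 3040 with the exact permutation of litter means, 1853 without a chip term, 710 with array brightness as a covariate and 503 without chip 3. When the test was limited to the 9420 names with a RefSeq symbol, an alternative chosen after seeing the data, 2186 were called, from fewer names tested. Over all names the calls ranged from 2116 (without LW_18) to 11020 (without DD_06) when single pigs were left out. The 1 member called, FCGR2B, kept a positive difference under every alternative, from 0.13 to 0.73. There were 0 members called by limma with the probe of highest mean, without a chip term, with each chip left out or without LW_18, and 0 by the exact permutation. In each of these cases 1 or 2 of the 9 members had an unadjusted p under 0.05. At that limit 36.7% of all genes passed in the main limma fit and 36.1% in the permutation. This share was not counted for the other alternatives, those without chip 3 among them. Pathway calls, 24 in all, were 15 with cyclic loess and with no filter, 38 with each probe by itself, 9 with the permutation, 6 without a chip term, 3 with brightness and 1 without chip 3, and 8 to 34 when single pigs were left out. Marker calls, 12 in all, were 7 with no filter and without chip 2, 6 without the litter block, 3 with the permutation, without a chip term and with brightness, 0 without chip 3 (13 at an unadjusted limma p under 0.05), and 3 to 18 when single pigs were left out.

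FCGR1A was positive and not called under every alternative, from 0.35 to 1.34. The other members that were not called changed sign in these cases. With brightness as a covariate FCER1G was at -0.05, FCGR3A at 0.08, NCF1 at -0.03 and SYK at 0.21. Without chip 2 FCGR3A was at 0.03, FCGRT at 0.01 and SYK at 0.06. Without chip 3 NCF1 was at -0.10 and NCF4 at -0.38, and without chip 1 CYBB was at -0.10. FCGR3A was at 0.11 with 75th percentile scaling and 0.01 with cyclic loess, and SYK at 0.05 with the probe of highest mean. When single pigs were left out CYBB ranged from -0.04 to 0.15, FCGR3A from -0.18 to 0.02 and NCF4 from -0.08 to 0.43. The cause of these changes was not tested. No analysis paired between breeds was possible, because DD and LW were different animals from different litters.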
